A study of Mus musculus with 8 samples.

Results

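Heme breakdown and iron handling genes of the liver were followed in mice with colitis. The list names 10 genes (Hmox1, Blvra, Blvrb, Tfrc, Trf, Slc40a1, Steap3, Fth1, Ftl1 and Cp). For each gene the measurement was the array row annotated to that gene alone, and among several such rows the one whose mean over the 8 arrays was highest. By this rule 8 of the 10 genes were measured, among 22180 genes in all. Trf and Ftl1 occur only in rows that also name other genes, and those rows are described separately. Liver RNA of 8 mice was read on Affymetrix Mouse Gene 2.0 ST arrays, 4 labelled as IL-10 knockout and 4 labelled as wild-type. Both groups are labelled as female C57BL/6 mice, 6 weeks old, given 3% dextran sulfate sodium (DSS) to drink for 7 days. DSS damages the lining of the colon and causes colitis, and IL-10 is a cytokine that restrains inflammation. Since both groups drank DSS, every difference is between arrays of mice with DSS, grouped by the genotype on their labels. Values are log2 levels from robust multi-array averaging (RMA), and a value after ± is the SD of the 4 arrays of a group.

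Heme from old red cells is opened by heme oxygenase, which releases iron, carbon monoxide and biliverdin, and biliverdin reductases turn biliverdin into bilirubin. In the liver, Kupffer cells (the resident macrophages) take up red cells and hemoglobin, while hepatocytes store iron in ferritin and secrete transferrin and ceruloplasmin into the blood. Ferroportin is the known exporter of iron from both cell types, and hepcidin, a hormone made by hepatocytes, causes its removal from the cell surface.

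Windows around the start sites of 7 members are in the RefSeq promoter table of build GRCm38.p6, 14 windows in all, each with about 250 bases before and 50 bases after a start. Hmox1, Slc40a1 and Trf have no window there, so the motif counts below do not cover them. Shown are 2 of the 4 windows of Steap3, the member that was lower in the arrays labelled knockout: the outermost window, and the only Steap3 window that holds a motif searched for. Capitals mark TGANNNNGC, the core of the antioxidant response element bound by NRF2, on either strand. Both sequences read 5′ to 3′ on the minus strand.
Steap3 chr1:120271031-120271330: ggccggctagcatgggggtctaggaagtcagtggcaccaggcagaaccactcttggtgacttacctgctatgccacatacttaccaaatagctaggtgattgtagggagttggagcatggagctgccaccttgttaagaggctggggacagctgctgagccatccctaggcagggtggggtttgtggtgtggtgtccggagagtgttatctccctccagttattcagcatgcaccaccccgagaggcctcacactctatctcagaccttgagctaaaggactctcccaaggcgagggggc
Steap3 chr1:120258829-120259128: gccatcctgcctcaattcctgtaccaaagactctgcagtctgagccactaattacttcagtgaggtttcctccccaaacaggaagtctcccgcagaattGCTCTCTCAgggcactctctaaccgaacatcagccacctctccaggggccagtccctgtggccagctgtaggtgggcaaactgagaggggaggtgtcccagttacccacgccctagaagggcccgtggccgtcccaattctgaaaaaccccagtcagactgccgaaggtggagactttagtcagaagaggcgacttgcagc
The motif TGANNNNGC occurs in 4 of the 14 windows of members (1 of Steap3, 1 of Blvra and 2 of Blvrb) and in 41.3% of all 32851 windows in the table. Neither TTCNNNGAA, a STAT motif, nor CACGTG, an E-box, occurs in the 14 windows; among all windows 8.30% and 7.15% hold them. Both strands were searched, and the 3 motifs were searched independently of each other.

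Before any comparison, 4 arrays went against the label female. Y-linked genes (mean of 3 rows) read 8.20 to 8.52 on replicates 1 and 2 of both groups, with Xist at 5.62 to 6.32. On replicates 3 and 4 of both groups they read 4.30 to 4.48, with Xist at 11.68 to 11.82. These are called the Y-linked set and the Xist set. Each holds 2 arrays of each group, and results are also given within the sets. Il10 itself read 5.97 ± 0.32 in arrays labelled knockout and 4.97 ± 0.08 in wild-type arrays (difference 1.00, SE 0.14; limma adjusted p = 0.00851). Both means lay below the array medians of 6.09 to 6.22, but replicate 4 labelled knockout read 6.41. Whether Il10 was detected is not known. The row of the targeted gene was higher, not lower, where the label says knockout, so directions are taken from the labels only. No source used here places the mutation relative to the probes of this row. The hepatocyte marker Alb read 13.51 ± 0.04 in arrays labelled knockout and 13.63 ± 0.02 in wild-type arrays, close to the highest value in the table, 13.77.

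Of the 8 measured members, Hmox1 rose and Steap3 fell in the arrays labelled knockout, and the other 6 did not pass the test (limma, adjusted p below 0.05 over all 22180 genes). Hmox1 was 1.53-fold higher and Steap3 was 1.51-fold lower. Called members were thus 2 of 8, where 3.15% of all genes were called (1.56% higher and 1.59% lower; 347 and 352 genes, or 236 and 393 when every array was given a common median). The groups did not overlap for 3 members, Hmox1, Steap3 and Cp, a share of 37.5% against 12.9% of all genes. The same 3 members had an unadjusted p below 0.05, where 21.2% of all genes had one. The median difference of the 8 members was -0.02, and that of all genes was 0.03. The 8 genes were chosen with earlier results of these data known, so these shares describe the list and are no test of it.

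**Figure D1:**
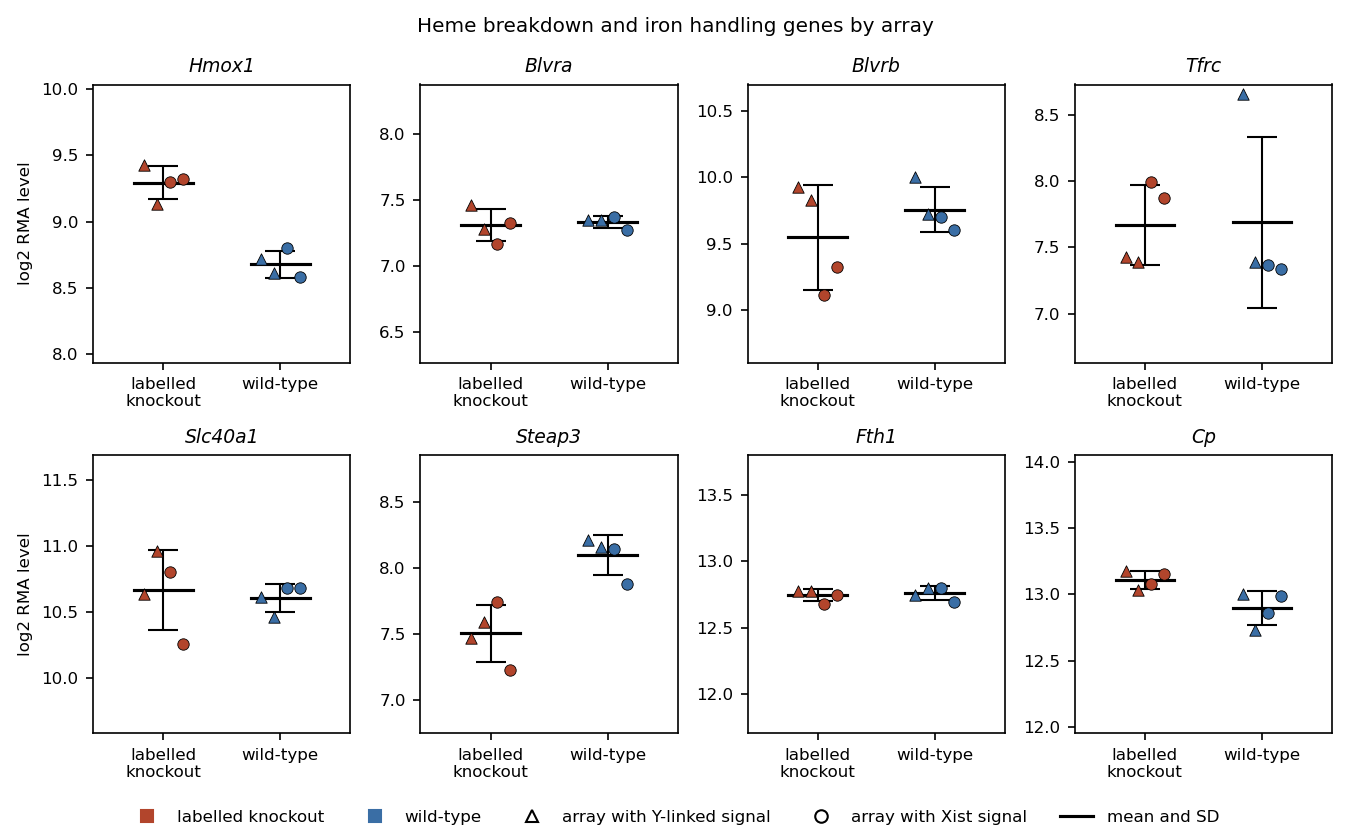
Log2 RMA level of the 8 measured members on each array, arrays labelled knockout on the left and wild-type arrays on the right of each panel; every panel spans the same number of log2 units. Points are arrays (triangles with Y-linked signal, circles with Xist signal), and lines give mean and SD of 4 arrays. The groups are apart for Hmox1, Steap3 and Cp, and 1 wild-type array stands at 8.66 for Tfrc.

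Heme oxygenase 1, the inducible enzyme that opens the heme ring, rose. Hmox1 read 9.43, 9.13, 9.30 and 9.32 in replicates 1 to 4 labelled knockout, against 8.72, 8.61, 8.80 and 8.58 in wild-type replicates 1 to 4. All 4 arrays labelled knockout lay above all 4 wild-type arrays. Means were 9.29 ± 0.13 in arrays labelled knockout and 8.68 ± 0.10 in wild-type arrays (SD, n = 4 each), a difference of 0.62 (SE 0.08; 95% interval 0.43 to 0.80; limma adjusted p = 0.00815). The difference was as large within each set of arrays, 0.61 in the Y-linked set and 0.62 in the Xist set. With 2 arrays a group the adjusted p within the sets was 0.129 and 0.0872, and with the sets as a block over all 8 arrays it was 0.00772. Hmox1 stayed below 0.05 without any single array (adjusted p 0.0098 to 0.0303).

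The biliverdin reductase genes did not pass. Biliverdin reductase A, encoded by Blvra, read 7.46, 7.28, 7.17 and 7.33 in replicates labelled knockout, against 7.35, 7.35, 7.37 and 7.27 in wild-type replicates, and the groups overlapped. Its difference of -0.03 had a 95% interval of -0.20 to 0.14 (limma adjusted p = 0.859), so that the interval lies below the 0.43 at the lower end of the interval of Hmox1. Blvrb, which encodes biliverdin reductase B, read 9.93, 9.83, 9.11 and 9.32 in replicates labelled knockout, against 10, 9.72, 9.70 and 9.60 in wild-type replicates. Replicates 3 and 4 labelled knockout, both in the Xist set, were the lowest of the 8 arrays. The difference over all arrays was -0.21 (95% interval -0.60 to 0.18; adjusted p = 0.515). It was 0.02 in the Y-linked set and -0.44 in the Xist set (test of the difference between the sets, unadjusted p = 0.0363, adjusted p = 0.890). Hmox2, the constitutive heme oxygenase, had a difference of 0.28 (limma unadjusted p = 0.0432, adjusted p = 0.220). Its groups did not overlap, by a narrow margin (10.24 against 10.23), and replicate 3 labelled knockout was highest at 10.81.

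Taken as lists, markers of macrophages and neutrophils were higher in the arrays labelled knockout, the group in which Hmox1 was higher. In RNA of whole liver, a change in the number of cells of a type and a change in RNA per cell cannot be told apart. Of 11 Kupffer cell and macrophage markers, 5 rose and 6 did not pass, with a median difference of 0.56; among those that rose were Csf1r (0.56), C1qb (0.64) and Vsig4 (0.61). The log2 of their summed level was 13.75 to 14.05 in arrays labelled knockout and 13.20 to 13.48 in wild-type arrays. Of 7 neutrophil markers, 6 rose and 1 did not pass (median difference 1.26), and their summed level was 10.27 to 11.27 in arrays labelled knockout and 8.91 to 9.47 in wild-type arrays. Both summed levels were apart between the groups. Taken singly, 7 of the 11 macrophage markers and 6 of the 7 neutrophil markers were apart. Relative to wild-type means, the median of the macrophage markers was 0.44, 0.72, 0.25 and 0.71 in replicates 1 to 4 labelled knockout. Hmox1 read 9.43, 9.13, 9.30 and 9.32 on those arrays. The part of these cells in the rise of Hmox1 was not tested. Slc40a1, which macrophages also express, had a difference of 0.06 (adjusted p = 0.826).

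Hmox1 is known as a target of the stress factor NRF2. Of 7 other NRF2 targets, 2 fell, none rose and 5 did not pass, with a median difference of -0.27. Of the 7 differences, 5 were negative and 2 positive. Their summed level was 12.32 to 12.92 in arrays labelled knockout and 13.18 to 13.41 in wild-type arrays. This sum weighs genes by their level and includes the 2 that fell, so it does not describe the list as a whole. Osgin1, an oxidative stress response gene, fell by 1.73 (adjusted p = 0.00587) and Gclc, the catalytic subunit that starts glutathione synthesis, fell by 1.11 (adjusted p = 0.0495). Bach1, a heme-sensing repressor of Hmox1, had 0.07 (adjusted p = 0.651), Nfe2l2, which encodes NRF2, -0.14 (adjusted p = 0.559) and Keap1, its inhibitor, -0.33 (adjusted p = 0.0893). The part of NRF2 in the rise of Hmox1 was not tested.

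**Figure D2:**
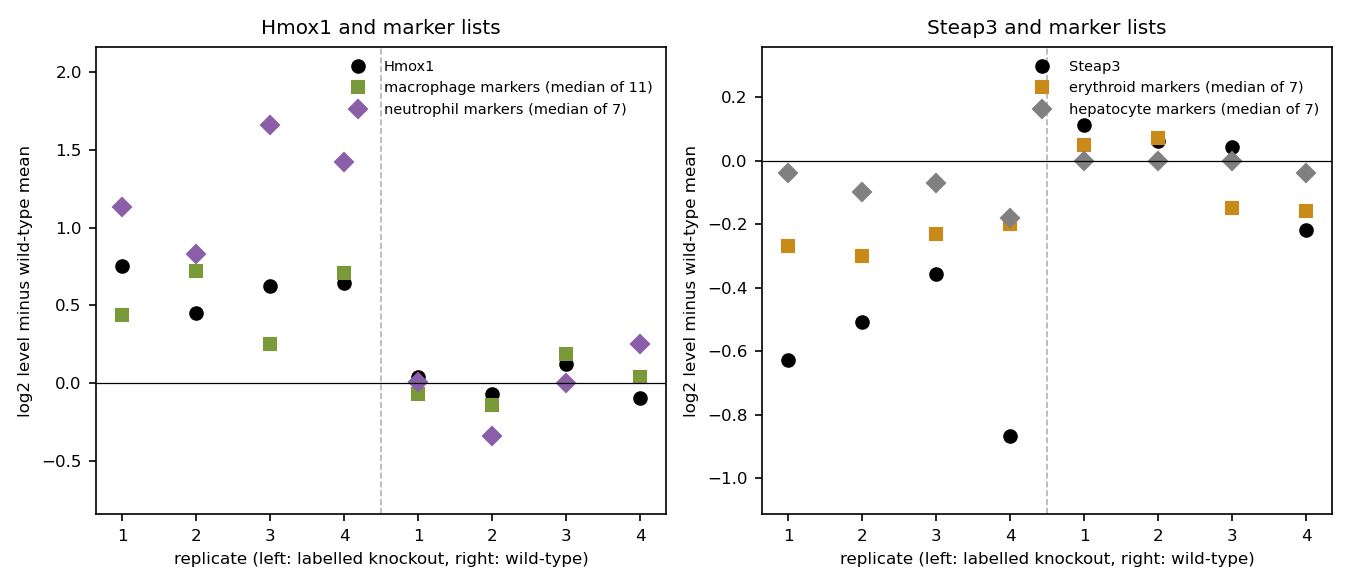
Level of Hmox1 (left panel) and Steap3 (right panel) on each array beside the median of marker lists, each as log2 level minus the wild-type mean of the gene; arrays labelled knockout stand left of the dashed line and wild-type arrays right of it. Macrophage markers lie at 0.25 to 0.72 in arrays labelled knockout and -0.14 to 0.19 in wild-type arrays, and erythroid markers at -0.30 to -0.20 and -0.16 to 0.07.

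Iron uptake by the transferrin route gave 1 called member. Steap3 encodes an endosomal reductase that turns the ferric iron released from transferrin into the ferrous form. It read 7.47, 7.59, 7.74 and 7.23 in replicates labelled knockout, against 8.21, 8.16, 8.14 and 7.88 in wild-type replicates. The highest array labelled knockout lay under the lowest wild-type array. Means were 7.51 ± 0.22 in arrays labelled knockout and 8.10 ± 0.15 in wild-type arrays (SD, n = 4 each), a difference of -0.59 (SE 0.12; 95% interval -0.85 to -0.33; limma adjusted p = 0.0287). Within the sets it was -0.65 in the Y-linked set (adjusted p = 0.0602) and -0.53 in the Xist set (adjusted p = 0.257), and with the sets as a block the adjusted p was 0.0245. The call was lost without replicate 4 labelled knockout (adjusted p = 0.0689) and without wild-type replicates 1, 2 or 3 (0.0924, 0.0810 and 0.0858), and the difference then stayed between -0.58 and -0.50.

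Steap3 lies within 20 Mb of Il10 on chromosome 1 in the RefSeq table, the only measured member that does. Slc40a1 is on the same chromosome outside that window. In the window 13 of 197 genes other than Il10 were called (9 higher and 4 lower, with Steap3 itself among the lower). That is a share of 6.60% against 3.12% of the 21796 other genes placed. A window of 10 Mb leaves Steap3 outside and holds 154 genes, 5.84% of them called. Whether strain differences near the mutated gene touch the Steap3 row was not tested. Of 7 erythroid markers measured, 2 fell (Car1, a carbonic anhydrase, and Tspan33, a membrane protein), none rose and 5 did not pass. The median difference of the 7 was -0.18, with 6 negative and 1 positive, and 2 of them were apart between the groups. Their summed level (log2) was 9.19 to 9.25 in arrays labelled knockout and 9.50 to 9.90 in wild-type arrays. This sum weighs genes by their level and includes the 2 that fell, so it does not describe the list as a whole. The part of erythroid cells in the fall of Steap3 was not tested. Of 7 hepatocyte markers, Tat rose and 6 did not pass, with a median difference of -0.11 and 5 of the 7 negative. Alb and Ttr did not overlap between the groups, with differences of -0.12 and -0.16. The summed level was 15.61 to 15.69 in arrays labelled knockout and 15.58 to 15.66 in wild-type arrays, a sum led by rows near the highest value in the table.

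The transferrin receptor Tfrc, which carries iron-loaded transferrin into cells, did not pass. It read 7.43, 7.39, 7.99 and 7.87 in replicates labelled knockout, against 8.66, 7.39, 7.37 and 7.34 in wild-type replicates. Wild-type replicate 1 stood 1.27 above the next wild-type array and above all arrays labelled knockout. The difference was -0.02 (95% interval -0.65 to 0.61; limma adjusted p = 0.972), and 0.30 without that array (adjusted p = 0.364). Within the Xist set, which does not hold that array, it was 0.58 (adjusted p = 0.0866), and within the Y-linked set -0.62 (adjusted p = 0.620; difference between the sets, adjusted p = 0.863). The summed level of erythroid markers was 9.90, 9.83, 9.55 and 9.50 on wild-type replicates 1 to 4, and its part in the Tfrc value was not tested.

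Transferrin itself, encoded by Trf, shares its row with Srprb, a subunit of the signal recognition particle receptor. That row read 13.56, 13.50, 13.45 and 13.53 in replicates labelled knockout, against 13.56, 13.55, 13.53 and 13.57 in wild-type replicates. Its difference of -0.04 (SE 0.06; limma adjusted p over all rows 0.750) belongs to the row and cannot be given to either gene.

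Ferritin, the protein shell that stores iron, gave no call. Fth1, its heavy chain with the site that oxidises iron, read 12.78, 12.78, 12.68 and 12.75 in replicates labelled knockout, against 12.75, 12.80, 12.80 and 12.69 in wild-type replicates. The difference was -0.01 (95% interval -0.15 to 0.13; limma adjusted p = 0.930), and it was 0.01 after cyclic loess. On the log2 scale this interval lies below 0.43, the lower end of the interval of Hmox1. The levels of Fth1 lay near the top of the table, whose highest value was 13.77. Whether its row could show a change of that size was not tested. The light chain Ftl1 is named by 6 rows, each together with 1 or 2 pseudogenes. Of these rows 2 hold identical values, and the differences of the 6 ran from -0.28 to 0.03 (lowest adjusted p over all rows 0.444). Transcript levels do not show ferritin protein, whose synthesis is known to be controlled at translation.

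Iron export was represented by Slc40a1 and Cp. Slc40a1 encodes ferroportin. It read 10.64, 10.96, 10.80 and 10.26 in replicates labelled knockout, against 10.61, 10.46, 10.68 and 10.68 in wild-type replicates. The arrays labelled knockout included both the highest and the lowest value, and the difference was 0.06 (95% interval -0.24 to 0.36; limma adjusted p = 0.826). It was 0.27 in the Y-linked set and -0.15 in the Xist set.

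Cp encodes ceruloplasmin, the copper oxidase of plasma that loads exported iron onto transferrin, and is also known as an acute-phase protein. It read 13.18, 13.03, 13.08 and 13.15 in replicates labelled knockout, against 13.00, 12.73, 12.86 and 12.99 in wild-type replicates. The lowest array labelled knockout was above the highest wild-type array by a narrow margin. The difference of 0.22 (SE 0.08; 95% interval 0.04 to 0.40) had an unadjusted p of 0.0221 and a limma adjusted p of 0.160, so it did not pass, and over 20 alternatives it ran from 0.16 to 0.25 with an adjusted p of 0.119 to 0.588. Its levels lay near the top of the table.

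**Figure D3:**
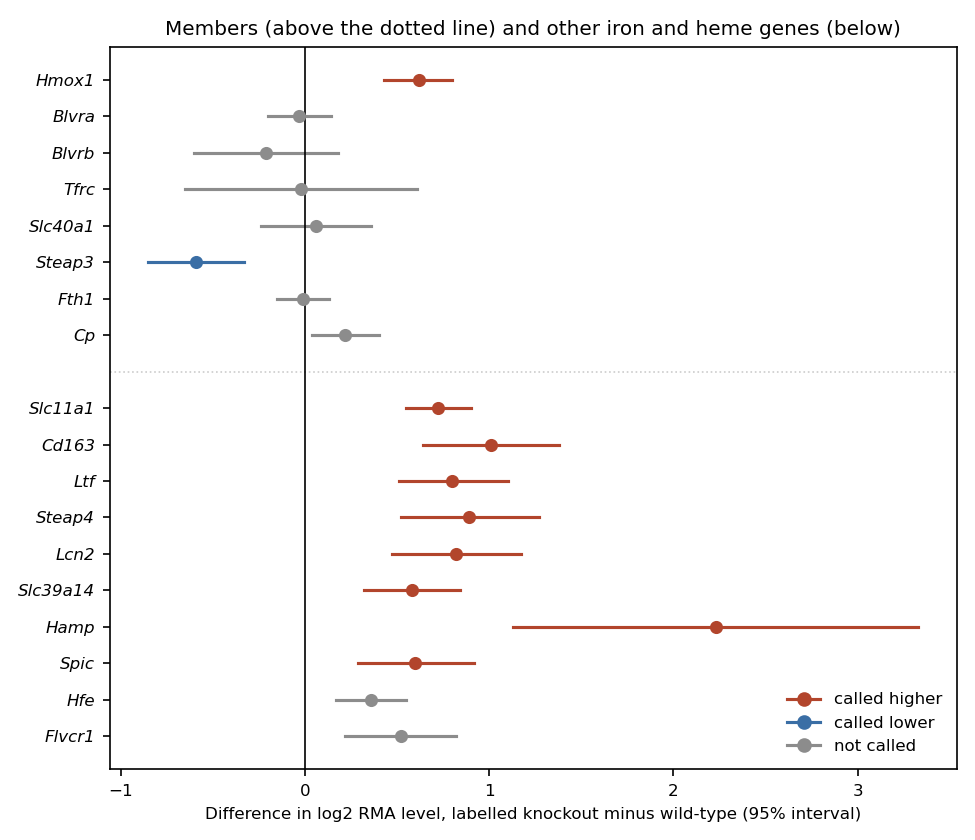
Difference in log2 RMA level (labelled knockout minus wild-type) with the 95% interval of the limma fit, for the 8 measured members (above the dotted line) and for 10 other iron and heme handling genes (below it). Hmox1 stands at 0.62 and Steap3 at -0.59; the intervals of Blvra, Blvrb, Tfrc, Slc40a1 and Fth1 include 0. The genes below the line are shown because they were called or had the smallest p among those not called.

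Beyond the members, 43 other iron and heme handling genes were listed and 40 measured; 8 rose, none fell and 32 did not pass. The median difference was 0.14, and that of all genes was 0.03. Of all 22180 genes, 1.56% were called higher and 1.59% lower. At an adjusted p below 0.1, 11 of the 40 genes were higher and 2 lower, against 844 and 841 of all genes. The list was chosen with earlier results of these data known, so these counts are no test of it. Of 19 uptake and scavenging genes, 6 rose: Cd163, the macrophage receptor for hemoglobin bound to haptoglobin, by 1.01, Slc11a1, the iron and manganese transporter of macrophage phagosomes, by 0.72, Steap4, a metalloreductase, by 0.89, Lcn2, which binds bacterial iron carriers, by 0.82, Ltf, the neutrophil granule protein lactoferrin, by 0.80 and Slc39a14, a zinc and iron importer, by 0.58. The level of Ltf was 6.48 ± 0.29 in arrays labelled knockout and 5.67 ± 0.09 in wild-type arrays, the second below the array medians of 6.09 to 6.22, and whether it was detected there is not known. Of 5 genes of heme breakdown and its control, Spic, a transcription factor of iron-recycling macrophages, rose by 0.60, with an adjusted p of 0.0499 just inside the threshold. The call of Spic held in 6 of 20 alternatives. It was lost with a common median (0.079), quantile normalization (0.0539) and cyclic loess (0.0543), and in 6 of the 8 fits without 1 array, all but those without replicates 1 or 3 labelled knockout (adjusted p 0.0397 to 0.137 over the 8).

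Hepcidin was the 1 of 6 iron sensing genes that rose. Hamp read 13.01, 13.11, 12.91 and 13.06 in replicates labelled knockout, against 9.91, 9.69, 11.13 and 12.43 in wild-type replicates. The SD was 0.08 in arrays labelled knockout and 1.26 in wild-type arrays, and the groups did not overlap (difference 2.23, SE 0.49; limma adjusted p = 0.0425). Levels in arrays labelled knockout lay near the highest value in the table, 13.77, and whether this narrows their spread was not tested. The call was lost in 7 of the 8 fits without 1 array (adjusted p 0.0562 to 0.12). It held without wild-type replicate 4 (0.011), and in 10 of 20 alternatives. A trended and robust limma fit was among those that lost it (adjusted p = 0.107). The difference was 3.26 in the Y-linked set (adjusted p = 0.000681) and 1.20 in the Xist set (adjusted p = 0.199; difference between the sets, unadjusted p = 0.00169, adjusted p = 0.521). Slc40a1, whose protein hepcidin removes, is described above with no call. Hfe, a hepcidin regulator, had 0.36 (adjusted p = 0.0522, and 0.0431 with the sets as a block), and Flvcr1, a heme exporter, 0.52 (adjusted p = 0.0686, and 0.0585 with that block). None of 6 genes of storage, release and oxidation and none of 4 mitochondrial iron genes was called. Of these 10 genes, 4 had an unadjusted p below 0.05 and are named for that after their values were seen. Ncoa4, which delivers ferritin for breakdown, had 0.37 (adjusted p = 0.123). The mitochondrial iron importers had opposite signs, -0.43 for Slc25a37 (adjusted p = 0.0822, groups overlapping) and 0.28 for Slc25a28 (adjusted p = 0.12, groups apart). Abcb10, a transporter of the inner mitochondrial membrane, had -0.41 (adjusted p = 0.173, groups overlapping).

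Single arrays weighed on the count of 8: it was 3 without replicate 4 labelled knockout, and 2, 4 and 2 without wild-type replicates 1, 2 and 3. Cd163 and Slc11a1 were called in each of the 8 fits without 1 array. Within each set of 4 arrays 2 of the 8 were called, Cd163 and Ltf in the Xist set and Slc11a1 and Hamp in the Y-linked set, and Scara5, a ferritin receptor not among the 8, was called in both. Cd163 and Slc11a1 were higher in the same labelled group as the macrophage markers given above, and Ltf in the same group as the neutrophil markers. Whether they follow those markers from array to array was not tested, nor was the part of those cells. Among the Steap genes, named here after their values were seen, Steap3 fell and Steap4 rose, while Steap1, at a low level of 3.67 and 3.73 in the 2 groups, had -0.07 (adjusted p = 0.612) and Steap2 0.13 (adjusted p = 0.767).

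Genes with profiles most like those of the called members were found by the root mean square difference of centred log2 values over the 8 arrays, among 11090 genes above the median level. For Hmox1 these were Vim, an intermediate filament of non-epithelial cells (0.0654 log2 units), Clec4a1, a myeloid lectin (0.102), and Ms4a6b (0.106). Their own differences were 0.53, 0.70 and 0.64. For Steap3 they were Cyp2f2, a cytochrome P450 (0.0464), Kyat1, a kynurenine aminotransferase (0.0720), and Dapk1, a kinase (0.0949), with differences of -0.60, -0.70 and -0.51. None of the 6 lies within 20 Mb of Il10, and likeness over 8 arrays of 2 groups partly reflects the group difference itself.

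**Figure D4:**
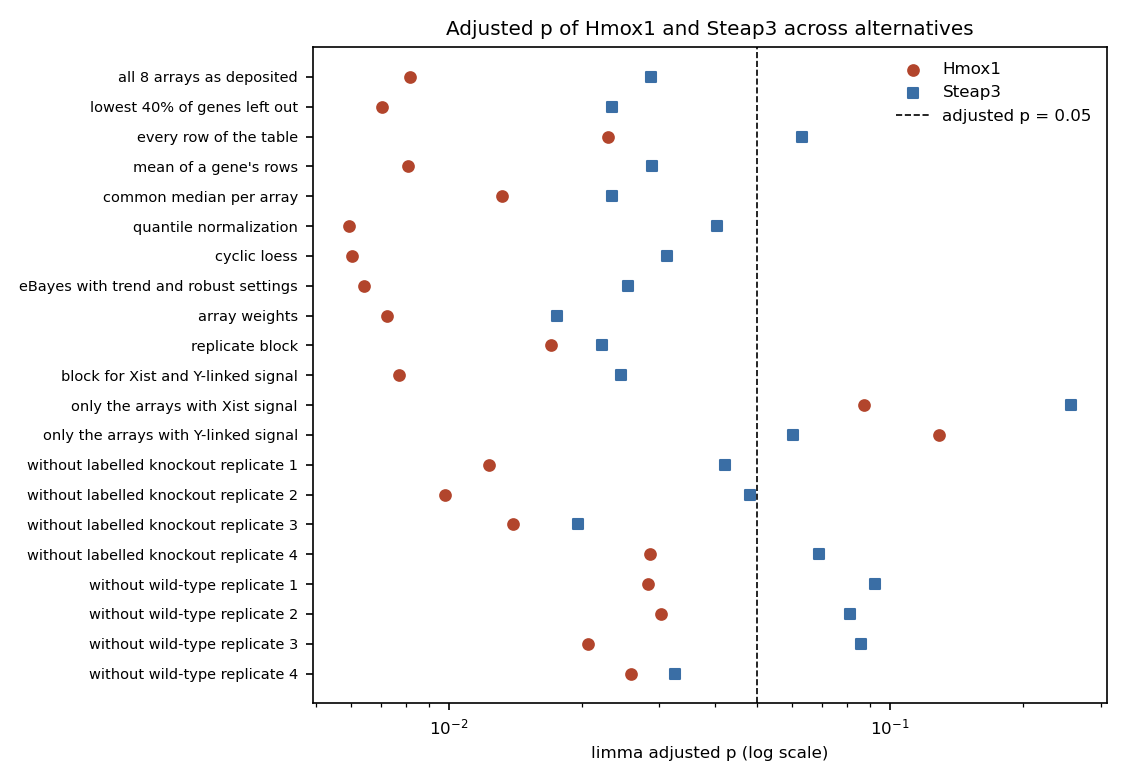
Limma adjusted p (log axis) of Hmox1 (circles) and Steap3 (squares) with all 8 arrays as deposited and under 20 alternatives; the dashed line is 0.05. Hmox1 lies left of the line in 18 of the 20 alternatives and Steap3 in 13, and both lie right of it within either set of 4 arrays.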

How the data were processed

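The authors' deposited table holds log2 RMA values of 41345 rows on 8 arrays, and per the submitters' processing notes RMA was run in R 3.0.1. The sources used here give neither its background settings nor a genome build. Groups came from the sample titles. By the platform annotation 23521 rows name 1 gene, 1814 several, and 16010 are unlisted; 22180 genes were kept, 1 row each. Symbols were checked against RefSeq GRCm38.p6, where 23328 rows matched. Arrays labelled knockout were compared with wild-type arrays with limma 3.58.1 (lmFit, eBayes) in R 4.3.3 on log2 values, with Benjamini-Hochberg adjustment over all genes. The number of arrays limits precision, and since no label names litters or cages, p-values reflect only how these samples vary. Only the main limma fit was tried on simulated data, with normal noise. The members, lists, named genes and alternatives were chosen with earlier results of these data known. The named genes were all members, Il10, the called iron and heme genes of the list, the 2 uncalled ones with the smallest p, up to 3 called markers a list, and the 3 likest profiles of each called member. Trf and Ftl1 had no row naming them alone, and some other listed genes are not reported here. Figures used matplotlib 3.10.9.

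Alternatives were a fit on every row, a fit without the lowest 40% of genes, averaging the rows of a gene, array weights, a trended and robust eBayes, 3 rescalings of the arrays (cyclic loess, quantile, common median), the replicate number as a block, the Xist and Y-linked sets as a block, each set alone, each array left out, an adjusted p below 0.1, and a window of 10 Mb in place of 20 Mb around Il10.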

Additional observations from a re-analysis of the deposited data

Results flagged for a closer look

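In groups of 4 arrays, 1 array was far from the other 3 in 2 of 38 checks of the named genes, and chance gives about 1 in 20. Tfrc stood at 8.66 on wild-type replicate 1, where the other wild-type arrays were at 7.34 to 7.39. Steap4 stood at 12.42 on wild-type replicate 4, where the other wild-type arrays were at 11.79 to 11.88; all 4 arrays labelled knockout were higher, at 12.51 to 13.13. Their causes were not tested.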

How the results depend on the processing

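Hmox1 kept its direction under 20 alternatives (0.56 to 0.67; adjusted p 0.00592 to 0.129) and its call in 18, all but the sets of 4 arrays. Steap3 kept its direction (-0.67 to -0.50; adjusted p 0.0176 to 0.257) and its call in 13. Members called lower were 0 with every row tested, and members called higher and lower were 0 and 0 within the Xist set and again within the Y-linked set, where each group has 2 arrays. Without 1 array each, members called lower numbered 0 to 1.

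Of the 6 uncalled members, Cp never changed sign and the other 5 did under some alternative. In the Y-linked set Blvra was 0.02, Blvrb 0.02 and Fth1 0.01; in the Xist set Tfrc was 0.58 and Slc40a1 -0.15. Tfrc was 0.02 with quantile normalization, and Fth1 0.01 with cyclic loess and 0.00 with array weights. Without 1 array each, the ranges were -0.08 to 0.02 for Blvra, -0.14 to 0.30 for Tfrc, -0.04 to 0.19 for Slc40a1 and -0.03 to 0.01 for Fth1.

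Other iron and heme genes called higher numbered 3 with every row and 3 in each set; 1 was lower with the replicate block, and 11 were higher and 2 lower at an adjusted p below 0.1. Without 1 array each, 2 to 7 were higher and 0 to 2 lower. Over all genes, higher and lower calls were 170 and 162 with every row, 133 and 184 in the Xist set, 102 and 69 in the Y-linked set, and 844 and 841 at an adjusted p below 0.1; 565 were lower with the block for these sets. With a common median they were 236 and 393, against 347 and 352 as deposited. Without 1 array each they ran from 109 to 429 higher and from 96 to 611 lower.

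Replicate numbers share no stated litter or day, and same-numbered arrays deviated together only in part (correlations 0.272, 0.041, -0.100 and 0.291). With the replicate block, 225 genes were higher and 272 lower, and the adjusted p was 0.0170 for Hmox1 and 0.0222 for Steap3; Flvcr1 was then called (0.0409) and Spic not (0.109). The causes of the changes under the alternatives were not tested. Some of those fits also held fewer arrays or more rows. Depth does not apply to arrays, and levels near the array median come without a call of detection. Il10 and Ltf have no value without the lowest 40% of genes.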

Other observations

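Scara5, a ferritin receptor, differed more between the sets of arrays than between the labelled genotypes (picked after its values were seen). It read 9.97, 9.81, 7.99 and 8.01 in replicates 1 to 4 labelled knockout, against 8.78, 8.95, 7.08 and 6.71 in wild-type replicates. Replicates 1 and 2, in the Y-linked set, were the higher ones in both groups. The difference between labelled knockout and wild-type arrays was 1.06 (SE 0.62; limma adjusted p = 0.347), and with the sets as a block its SE was 0.10 and its adjusted p 0.00124.

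Slc11a2, the importer of ferrous iron out of endosomes, read 10.34, 9.43, 9.35 and 10.19 in replicates labelled knockout, against 9.24, 9.06, 8.80 and 9.20 in wild-type replicates. The groups did not overlap, and the difference of 0.75 (SE 0.22) had a limma adjusted p of 0.0911.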
